A study of Mus musculus with 10 samples.

Results

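The enzymes described here take part in the breakdown of tyrosine, tryptophan, histidine, serine and glyoxylate. They were taken as a list of 9 genes chosen for that function, with earlier results of these data known. The list was Tat, Hpd, Hgd, Fah, Tdo2, Hal, Uroc1, Sds and Agxt. Of these, 8 had a transcript cluster that the platform annotation assigns to exactly 1 gene symbol, each had 1 such cluster, and together they are 8 of 22180 genes measured this way. Their Entrez gene identifiers are 234724 for Tat, 15445 for Hpd, 15233 for Hgd, 14085 for Fah, 56720 for Tdo2, 15109 for Hal, 243537 for Uroc1 and 11611 for Agxt. Sds was not analysed here.

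RNA of mouse cells was hybridised to 10 arrays. Undifferentiated embryonic stem cells gave 4 arrays, hepatocyte-like cells differentiated from embryonic stem cells gave 3, and adult hepatocytes with liver as their source gave 3. All 10 samples carry the strain label C.FVB-Tg(CAG-luc, GFP), line L2G85Chco/FathJ, in which the ubiquitous CAG promoter drives luciferase and GFP reporters, and all carry a passage label of under 20, the adult hepatocytes included. Neither the age of the animals nor the differentiation protocol is given in the sources used here, and the titles number the samples as biological replicates without saying whether they came from separate animals or cultures, so the p-values below measure the spread among these samples only.

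The liver takes apart surplus amino acids from the diet for glucose, ketone bodies and energy. Tyrosine is first transaminated by tyrosine aminotransferase (Tat), then oxidised by 4-hydroxyphenylpyruvate dioxygenase (Hpd) and homogentisate dioxygenase (Hgd), and finally split by fumarylacetoacetate hydrolase (Fah). Tryptophan dioxygenase (Tdo2) opens the kynurenine pathway, histidine ammonia lyase (Hal) and urocanate hydratase (Uroc1) begin histidine breakdown, and alanine-glyoxylate aminotransferase (Agxt) removes glyoxylate in peroxisomes. Several of these genes, Tat and Tdo2 among them, are classic markers of a late hepatocyte state that is reached around or after birth, and Tat is a classic target of glucocorticoids.

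The labels were set against marker genes. Levels are deposited log2 values, and the floor of an array is taken here as the 95th percentile of its 1105 olfactory receptor genes, 4.85 to 5.22 over the 10 arrays. Of 14 hepatocyte markers, 14 lay above the floor on each adult array, against 8, 7 and 13 on hepatocyte-like replicates 1, 2 and 3 and 7 to 9 on the stem cell arrays. Albumin (Alb) read 4.85, 5.14 and 10.80 on the hepatocyte-like arrays and 13.42 to 13.48 in adult hepatocytes. Alpha-fetoprotein (Afp), a transcript of early liver and of visceral endoderm, read 9.13, 9.30 and 6.69 on the hepatocyte-like arrays. Of 9 markers of visceral and fetal endoderm, Afp among them, 9 were above the floor on each hepatocyte-like array. On the adult arrays 6 or 7 were, and on the stem cell arrays 7 or 8. The mean of these 9 was 7.53, 7.49 and 7.04 on the hepatocyte-like arrays and 5.52 to 5.96 on the stem cell arrays. The mean of the 14 hepatocyte markers was 5.38, 5.95 and 6.78 on the hepatocyte-like arrays and 5.08 to 5.19 on the stem cell arrays. Some were highest on replicate 3, as Alb was: Serpina1c read 3.46, 4.12 and 8.08, Ahsg 4.87, 5.21 and 7.71 and Cyp2e1 5.21, 5.33 and 6.83. Others were highest on replicate 2: the transport protein Ttr read 9.04, 10.44 and 8.77, the fibrinogen chain Fgb 6.67, 7.99 and 6.85 and the apolipoprotein Apoa1 6.95, 7.97 and 6.80. Ttr, Fgb and Apoa1 rose against stem cells by 3.10 ± 0.32, 3.18 ± 0.27 and 1.71 ± 0.27, while Ahsg had a mean of 5.93 against 7.18 in stem cells. Replicate 3 of the hepatocyte-like cells stood apart in Alb and Afp, and Nanog, a pluripotency factor, was also higher there at 7.12 against 5.08 and 5.09. Pou5f1, another such factor, had a mean of 5.61 in hepatocyte-like cells against 7.49 in stem cells. On the hepatocyte-like arrays 8, 7 and 7 of 9 stellate cell and fibroblast markers were above the floor. On the adult arrays 9, 8 and 9 were, and on the stem cell arrays 5, 5, 5 and 6. The collagen gene Col1a1 read 12.80, 11.92 and 9.80 on the hepatocyte-like arrays and 5.91 to 6.31 on the adult arrays. On the stem cell arrays 4, 4, 4 and 3 of 5 measured bile duct markers were above the floor, and on the adult arrays 2, 3 and 2. On each hepatocyte-like array 4 were. Of these markers Krt19 was at 8.68 or above on the hepatocyte-like arrays, while Cftr was below the floor on each of them. Of 6 kidney tubule markers 4, 2 and 3 were above the floor there, against 5, 4, 4 and 3 on the stem cell arrays. On the hepatocyte-like arrays Slc34a1 was near the floor at 5.19, 5.27 and 4.98. Lrp2, an endocytic receptor, read 5.99, 6.41 and 9.36, highest on replicate 3. On the adult arrays all 7 endothelial markers and 6 or 7 of 7 macrophage markers were above the floor. The part of these cell types in the results was not tested. In mixtures of cells, fewer cells of a type and less RNA per cell cannot be told apart.

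All 8 enzymes were higher in adult hepatocytes than in stem cells, by log2 differences of 3.99 to 8.27, where 11% of all genes were called higher. In hepatocyte-like cells all 8 were lower than in adult hepatocytes, by 3.28 to 7.68, where 9.12% of all genes were called lower. Between hepatocyte-like and embryonic stem cells 1 of 8 passed the test, where 16% of all genes did, 7.35% of them all as lower. That enzyme was Hal, which fell, in the direction away from the adult level. Fah, the last enzyme of tyrosine breakdown, lay well above the floor on all 10 arrays, while Hgd, Tdo2, Uroc1 and Agxt were below it on all 4 stem cell arrays.

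**Figure D1:**
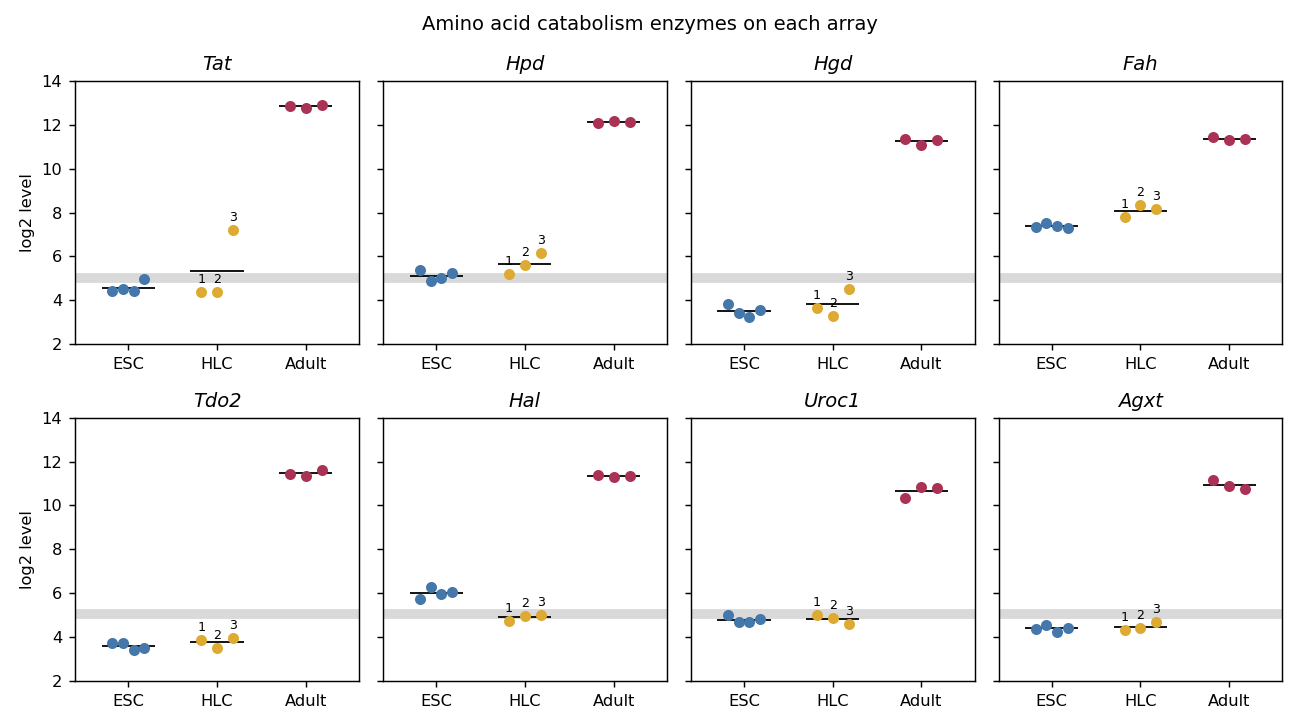
Log2 level of each enzyme (vertical axis) on each of the 10 arrays, by cell kind: ESC, embryonic stem cells (4 arrays), HLC, hepatocyte-like cells (3 arrays, numbered by replicate), and adult hepatocytes (3 arrays). Horizontal lines are group means and the grey band is the range of the array floors, 4.85 to 5.22. Adult arrays sit above all others in each panel, and HLC replicate 3 lies apart for Tat at 7.22.

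The regions just before the start sites of these genes are shown first, since their base composition is set beside the levels in stem cells. For each of the 8 genes the 250 bases before the RefSeq start (GRCm38.p6) were read, and the number of CG dinucleotides was set against the number that the C and G content would give. Fah had 16 CG pairs, a ratio of 0.79, at or above that of 80.1% of 32851 mouse promoters. Hal had 6, a ratio of 0.48 against a median of 0.37 over all promoters. The others had lower ratios: Hpd 0.29, Tdo2 0.22, Tat 0.17, Hgd 0.11, Agxt 0.11 and Uroc1 0.00. Below are Fah (chr7:84605943-84606192, minus strand), Hal (chr10:93488518-93488767, plus strand), Tat (chr8:109990186-109990435, plus strand) and Uroc1 (chr6:90333039-90333288, plus strand), 5′ to 3′ on the strand of the gene and ending just before its start. They were picked as the richest in CG, the gene that fell, the gene that varied most among hepatocyte-like arrays and the gene with no CG, and capitals mark CG.
Fah: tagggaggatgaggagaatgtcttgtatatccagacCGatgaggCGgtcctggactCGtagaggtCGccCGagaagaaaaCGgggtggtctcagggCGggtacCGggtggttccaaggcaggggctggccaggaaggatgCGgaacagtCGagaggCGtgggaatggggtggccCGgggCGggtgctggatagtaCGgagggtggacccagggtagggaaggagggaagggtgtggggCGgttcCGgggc
Hal: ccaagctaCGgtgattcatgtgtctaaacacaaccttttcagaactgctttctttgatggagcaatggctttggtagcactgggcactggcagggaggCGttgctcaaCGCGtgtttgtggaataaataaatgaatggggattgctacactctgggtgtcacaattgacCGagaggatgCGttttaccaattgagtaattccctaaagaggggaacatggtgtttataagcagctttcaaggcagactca
Tat: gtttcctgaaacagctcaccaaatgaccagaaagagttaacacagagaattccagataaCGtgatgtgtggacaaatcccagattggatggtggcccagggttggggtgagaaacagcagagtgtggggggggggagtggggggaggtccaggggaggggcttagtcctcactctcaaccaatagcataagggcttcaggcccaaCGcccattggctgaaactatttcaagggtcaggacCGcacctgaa
Uroc1: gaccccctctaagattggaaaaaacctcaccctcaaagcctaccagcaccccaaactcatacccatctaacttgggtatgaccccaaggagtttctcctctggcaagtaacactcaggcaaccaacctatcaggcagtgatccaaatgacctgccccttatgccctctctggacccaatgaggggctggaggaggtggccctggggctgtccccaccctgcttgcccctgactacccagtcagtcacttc

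The 3 enzymes above the floor on all 4 stem cell arrays were Fah, Hal and Hpd, and they had the 3 highest CG ratios, 0.29 to 0.79. The 4 that were above it on 0 stem cell arrays, Hgd, Tdo2, Uroc1 and Agxt, had ratios of 0.00 to 0.22. Among further amino acid catabolism enzymes with a single promoter entry, 44 were above the floor on all 4 stem cell arrays and had a median ratio of 0.62 (range 0.10 to 1.11), while 7 above it on 1 to 3 arrays had a median of 0.29 (0.09 to 0.62) and 6 on no array a median of 0.36 (0.15 to 0.56). These ranges overlapped and their medians did not follow the order of detection, and the comparison was chosen after the levels were seen and is given as a description. The TATA box and short motifs of liver transcription factors were searched in the same windows on both strands, and no motif contains another. The TATA box TATAAA was in 3 of 8 (Hgd, Tdo2 and Hal) and in 12.4% of all promoters, either strand counted. In Hal the match was on the strand opposite to the gene. The C/EBP motif TTGCNNAA was in 2 of 8 (Hgd and Hal) and 9.56% of all. The FOXA motif TGTTTGC was in 1 of 8 (Tdo2, 4.3% of all). The FOXA motif TGTTTAC (3.17% of all), the HNF1 motif GTTAAT (6.43%), the HNF4 motif CAAAGTCC (1.2%) and the palindromic glucocorticoid receptor motif (0.387%) were in 0 of 8. Such a match is a match of letters, and liver enhancers outside these windows were not searched.

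**Figure D2:**
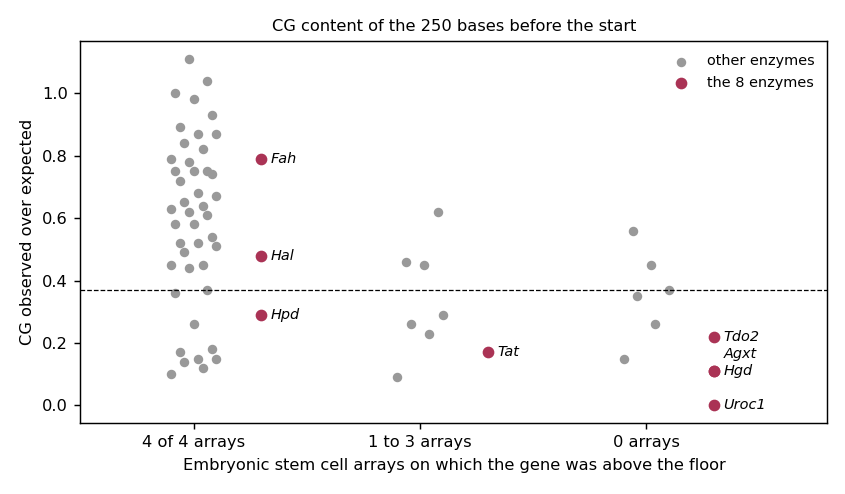
Ratio of observed to expected CG pairs in the 250 bases before the start (vertical axis) for genes above the floor on 4, on 1 to 3 or on 0 of the 4 embryonic stem cell arrays. Red points are the 8 enzymes and grey points further amino acid catabolism enzymes, and the dashed line is the median of all promoters, 0.37. Fah (0.79) and Hal (0.48) are the red points above that line.

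The comparison of adult hepatocytes (n = 3) with embryonic stem cells (n = 4) asks how far the enzymes separate the mature cell from the starting cell. Each difference was tested with limma over all genes. A call needed a log2 difference of at least 1 and a Benjamini-Hochberg adjusted p below 0.05. All 8 enzymes were called higher, where 11% of all genes were. The median log2 difference was 6.77 over the 8 and 0.05 over all genes. Tat read 12.87, 12.78 and 12.91 on the adult arrays against 4.44, 4.52, 4.42 and 4.96 on the stem cell arrays, a log2 difference of 8.27 ± 0.53 (SE; adjusted p = 4.41e-08). The adult values lay within 0.13 of each other and far above the stem cell values, 3 of which were below the floor.

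Along the tyrosine pathway the adult level was high at each measured step. Hpd read 12.07, 12.18 and 12.15 in adult hepatocytes and 5.37, 4.90, 5.0 and 5.25 in stem cells, a difference of 7.0 ± 0.21. Hgd read 11.35, 11.09 and 11.33 against 3.85, 3.44, 3.24 and 3.55, a difference of 7.74 ± 0.25. The stem cell values of Hpd were just above the floor and those of Hgd below it, so the folds of these genes are uncertain in size. Fah read 11.43, 11.33 and 11.36 against 7.33, 7.54, 7.37 and 7.31, a difference of 3.99 ± 0.16 or 15.9-fold. Its stem cell level was 6.3% of the adult level, and Fah was clear of the floor on both sides.

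Tdo2 read 11.44, 11.36 and 11.62 in adult hepatocytes against 3.75, 3.72, 3.39 and 3.48 in stem cells, a difference of 7.89 ± 0.17. Its stem cell arrays were all below the floor. Of the enzymes of histidine breakdown, Hal read 11.41, 11.31 and 11.34 against 5.74, 6.30, 5.95 and 6.05, a difference of 5.34 ± 0.16, and all 4 stem cell values were above the floor. Uroc1, which acts on the product of Hal, read 10.35, 10.85 and 10.79 against 5.01, 4.69, 4.69 and 4.81, a difference of 5.86 ± 0.18. Agxt read 11.17, 10.88 and 10.74 against 4.36, 4.57, 4.24 and 4.39, a difference of 6.54 ± 0.16. The stem cell values of Uroc1 and Agxt were below the floor on every array. Adjusted p-values of the 7 enzymes other than Tat ran from 6.08e-12 for Tdo2 to 4.58e-10 for Fah (limma), and the values of all 8 did not overlap between the groups, as those of 46.9% of all genes did not.

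The comparison of hepatocyte-like (n = 3) with embryonic stem cells (n = 4) asks how the levels stood after differentiation. Hal read 4.75, 4.95 and 5.02 in hepatocyte-like cells, below all 4 stem cell values of 5.74 to 6.30. It fell by 1.10 ± 0.16 (adjusted p = 2.23e-04), and only on replicate 3 did it remain above the floor of its array. It was 1 called of 8, where 16% of all genes were called, 7.35% lower and 8.61% higher. Fah moved the other way, at 7.78, 8.33 and 8.17 against 7.31 to 7.54 in stem cells. The groups of Fah did not overlap, as those of Hal did not and those of 34.6% of all genes did not. Its difference of 0.71 ± 0.16 had an adjusted p of 0.00468 (limma), but it stayed under the minimum of 1 and was not called. At any size of difference, 28.8% of all genes had an adjusted p under 0.05.

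**Figure D3:**
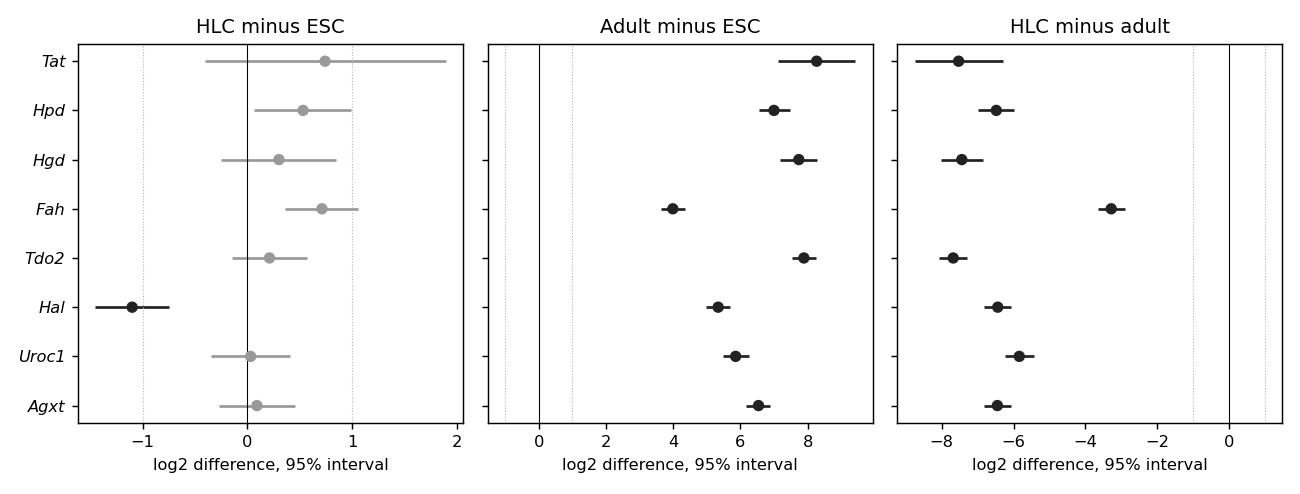
Log2 difference of each enzyme (horizontal axis, a different range in each panel) with its 95% interval from limma: HLC, hepatocyte-like cells (n = 3), minus ESC, embryonic stem cells (n = 4), adult hepatocytes (n = 3) minus ESC, and HLC minus adult. Black points were called, grey were not, and dotted lines mark a difference of 1 either way. In the left panel Hal is the black point, at -1.10.

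For the other 6 enzymes no difference passed the test, which does not show that they were alike. Uroc1 read 5.01, 4.89 and 4.59 in hepatocyte-like cells, a difference of 0.03 from stem cells with a 95% interval of -0.35 to 0.41 (adjusted p = 0.940, limma). Agxt read 4.33, 4.40 and 4.70, a difference of 0.09 (-0.27 to 0.45, adjusted p = 0.767). Apart from Uroc1 on hepatocyte-like replicate 1, which was just above it, both genes were below the floor on every array of both kinds, where a change in a low transcript could not be seen. Tdo2 read 3.88, 3.52 and 3.96, a difference of 0.21 (-0.15 to 0.57, adjusted p = 0.431). Hgd read 3.67, 3.29 and 4.50, a difference of 0.30 (-0.25 to 0.84, adjusted p = 0.460). Each of these values of Tdo2 and Hgd was below the floor. Hpd read 5.19, 5.61 and 6.17, all above the floor, a difference of 0.53 (0.06 to 0.99, adjusted p = 0.0913).

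Tat was the member that differed most between the hepatocyte-like arrays. It read 4.40 and 4.36 on replicates 1 and 2, at the low end of the stem cells, and 7.22 on replicate 3, with a standard deviation of 1.64 in the group against 0.07 in adult hepatocytes. Its difference from stem cells was 0.74 ± 0.53 (95% interval -0.41 to 1.89, adjusted p = 0.363, limma) and -0.20 without replicate 3. Replicate 3 was above all 4 stem cell arrays for 6 of 8 enzymes (Tat, Hpd, Hgd, Fah, Tdo2 and Agxt), as it was for 29.1% of all genes. Replicate 1 was above them for 2 (Fah and Tdo2; 31.4% of all genes) and replicate 2 for 2 (Hpd and Fah; 34.5% of all genes). Below all 4 stem cell arrays were Tat and Hal on replicate 1 (30.9% of all genes), Tat and Hal on replicate 2 (31.5%), and Hal and Uroc1 on replicate 3 (36%). Of the values on replicate 3, those of Tat, Hpd, Hal and Fah lay above the floor.

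The excess of replicate 3 over the stem cell mean was 2.63 for Tat, 1.04 for Hpd, 0.97 for Hgd, 0.78 for Fah, 0.38 for Tdo2 and 0.31 for Agxt, while Uroc1 was 0.21 below and Hal 0.99 below. On the linear scale Tat stood at 2.01% of its adult level on replicate 3, where it was above the floor, and at 0.285% and 0.278% on replicates 1 and 2, where it was not. Percentages from values below the floor, here and in what follows, are upper limits. Hpd stood at 1.6% of its adult level on replicate 3 against 0.813% and 1.09%. Fah, in contrast, was at 10.8% of its adult level on replicate 3 and at 8.28% and 12.1% on the others, within one range. Albumin on the same array was at 16.1% of its adult level against 0.259% and 0.318%, both from values below the floor, and 13 of 14 hepatocyte markers were above the floor there. The part of these markers in the values of Tat, Hpd and Hgd was not tested. Without replicate 3 the difference of Hpd from stem cells was 0.27, of Hgd -0.04, of Fah 0.67 and of Hal -1.16, and Hal remained the called member.

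**Figure D4:**
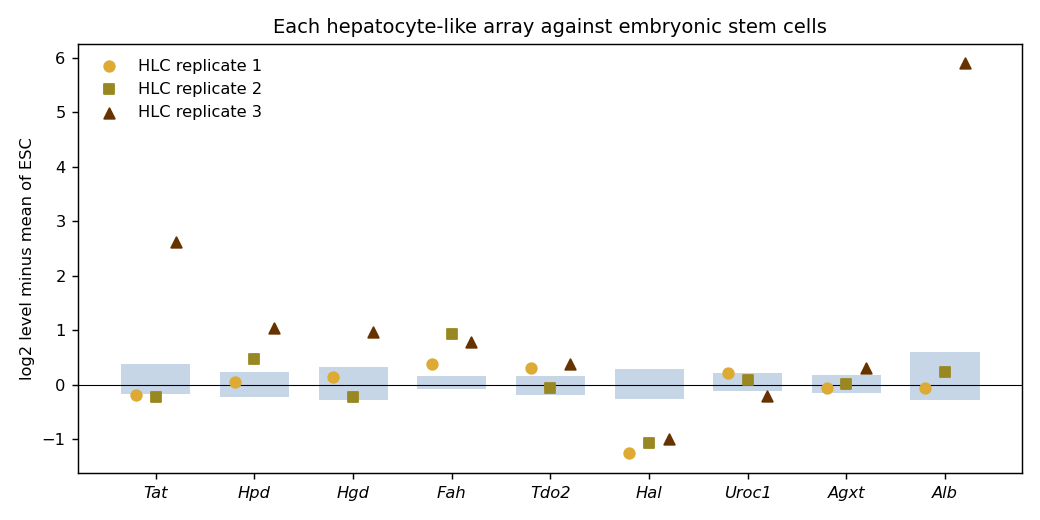
Log2 level of each enzyme, and of albumin (Alb) beside them, on each hepatocyte-like (HLC) array minus the mean of the 4 embryonic stem cell (ESC) arrays. Symbols are the 3 replicates and blue bars the range of the stem cell arrays. Replicate 3 lies highest for Tat (2.63), Hpd (1.04), Hgd (0.97) and Alb (5.90), while all 3 replicates lie below the bar for Hal.

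The comparison of hepatocyte-like cells (n = 3) with adult hepatocytes (n = 3) shows the distance that remained. All 8 enzymes were called lower in hepatocyte-like cells, where 9.12% of all genes were. Their values did not overlap between the groups, as those of 45.1% of all genes did not. The median difference was -6.46 over the 8 enzymes and -0.04 over all genes. Tdo2 fell short of the adult level by 7.68 ± 0.18, Tat by 7.53 ± 0.57 and Hgd by 7.44 ± 0.27 (adjusted p = 1.81e-11, 2.70e-07 and 2.32e-10, limma). Hpd, Agxt and Hal were lower by 6.48 ± 0.23, 6.45 ± 0.18 and 6.44 ± 0.17, and Uroc1 was lower by 5.84 ± 0.19. Fah was lower by 3.28 ± 0.17, or 9.73-fold (adjusted p = 7.04e-09). The mean level in hepatocyte-like cells was 10.3% of the adult level for Fah, and 0.488% to 1.75% for the other 7, most of whose values were at or below the floor. In stem cells these shares were already 6.3% for Fah and 0.324% to 2.47% for the other 7. For Hal the distance to the adult level was larger from hepatocyte-like cells than from stem cells, at 1.15% against 2.47% of the adult level, the former from values at or below the floor on 2 of 3 arrays. This comparison and those above share their arrays in pairs and are not independent of each other.

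Among themselves the 8 profiles were compared by the root mean square difference over the 10 arrays after each was centred on its own mean. Tdo2 and Hgd were the closest of the 28 pairs at 0.24 and Tat and Fah the farthest at 2.09. Tat spanned the widest range of levels and Fah the narrowest. Of all named genes, those closest to Tat were Pzp, a plasma proteinase inhibitor (0.18), and the fatty acid binding protein gene Fabp1 (0.30). The bile acid transporter Slc10a1 (0.16) and the glucose transporter Slc2a2 (0.19) were closest to Hpd, the plasma proteins Serpind1 and Crp (0.16 each) to Hgd, and the carboxylesterase Ces2a (0.17) and the sulfotransferase Sult1d1 (0.19) to Tdo2. For Uroc1 they were the sulfate transporter Slc26a1 (0.12) and the hepcidin regulator Tmprss6 (0.14), and for Agxt the bile acid synthesis enzyme Akr1d1 (0.13) and Mtarc1 (0.14). Hal was most like Bhmt2, a methyltransferase of homocysteine (0.22), and the glutathione transferase Gsta3 (0.24), which both had lower means in hepatocyte-like than in stem cells, at 4.17 against 5.28 and 4.67 against 5.42. Fah was most like Cutal (0.18) and Fggy (0.21), whose means in stem cells, hepatocyte-like cells and adult hepatocytes were 4.48, 5.08 and 8.21, and 6.03, 6.87 and 9.98. Because these genes were picked for likeness over the same arrays, that their means moved as those of Hal and Fah did follows from the choice.

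The neighbours of these enzymes in their pathways gave the setting. Of 87 further listed enzymes of amino acid breakdown 76 were measured, and in adult hepatocytes against stem cells 60 were called higher and 3 lower (median difference 2.23), where 11% and 15.6% of all genes were. In hepatocyte-like cells against stem cells 1 was higher and 27 lower (median -0.50, against -0.01 over all genes), where 8.61% and 7.35% of all genes were. Against adult hepatocytes 2 were higher and 65 lower, where 13.9% and 9.12% of all genes were. Without hepatocyte-like replicate 3, 2 were higher and 27 lower than in stem cells, 26 of the latter the same genes. By pathway, 7 of 13 enzymes of serine, threonine and glycine fell, 6 of 19 of branched chain amino acids, 5 of 10 of methionine and cysteine, and 3 of 11 of tryptophan. A further 3 of 8 of alanine, aspartate and glutamate fell, 2 of 4 of lysine, 1 of 2 of phenylalanine and tyrosine, 0 of 3 of histidine and 0 of 6 of proline and ornithine. Of the 27 that fell, 26 were above the floor on all 4 stem cell arrays, as were 58 of the 76. A fall of a gene below the floor in stem cells could not be seen, which limits the contrast between pathways. Among the 76, the largest adult excesses over stem cells were those of Mat1a (8.02 ± 0.27) and the lysine enzyme Aass (6.76 ± 0.14). Next were the glycine methyltransferase Gnmt (6.71 ± 0.20), Hao1 (6.61 ± 0.20), Aadat (6.57 ± 0.18) and the arginase Arg1 (6.56 ± 0.18). Aadat was counted above with tryptophan. In hepatocyte-like against adult cells Mat1a fell short by 7.41 ± 0.29 and Hao1, Gnmt, Bhmt2, Arg1 and Kmo by 6.68 to 6.26.

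**Figure D5:**
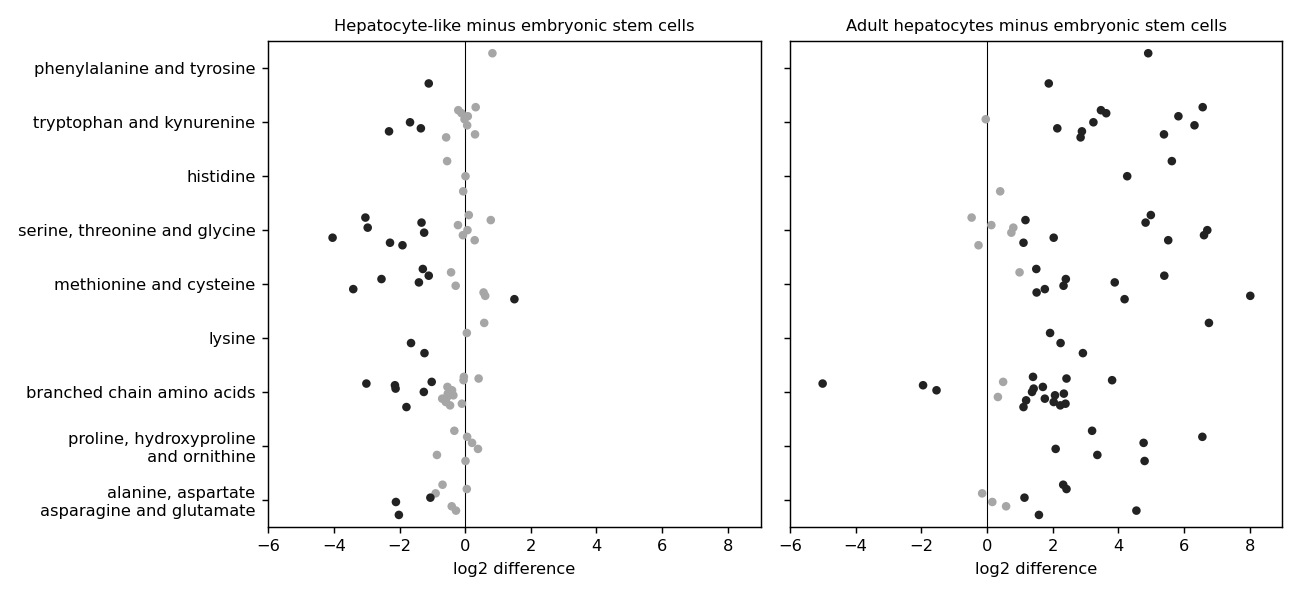
Log2 difference (horizontal axis) of 76 further enzymes of amino acid breakdown by pathway, for hepatocyte-like minus embryonic stem cells (left) and adult hepatocytes minus embryonic stem cells (right). Each point is a gene, black where called and grey where not. On the left 27 black points lie below 0 and 1 above, on the right 60 lie above 0 and 3 below.

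In the kynurenine pathway, which Tdo2 opens, the later enzymes were likewise high in adult hepatocytes. Kmo, the kynurenine hydroxylase, was at 4.29 in stem cells, 4.35 in hepatocyte-like cells and 10.61 in adult hepatocytes, Kynu at 3.10, 3.39 and 8.49, and Haao at 5.23, 5.31 and 11.06, and none was called between hepatocyte-like and stem cells (adjusted p = 0.845, 0.293 and 0.818, limma). The dioxygenase Ido1, which carries out the reaction of Tdo2 in immune and other cells, stayed near the floor in all 3 kinds at 5.17, 5.14 and 5.13. Its relative Ido2 fell from 6.69 in stem cells to 5.01 in hepatocyte-like cells (-1.68 ± 0.28, adjusted p = 6.11e-04), and was at 9.94 in adult hepatocytes. Of 11 further genes of this pathway 3 were called lower and 0 higher in hepatocyte-like than in stem cells, where 7.35% and 8.61% of all genes were.

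In histidine breakdown the steps after Uroc1 were also high in adult hepatocytes. Amdhd1, which takes the product of Uroc1, was at 5.03 in stem cells, 4.49 in hepatocyte-like cells and 10.66 in adult hepatocytes, and Ftcd, which passes the last carbon to folate, at 5.39, 5.40 and 9.66. Neither was called between hepatocyte-like and stem cells (adjusted p = 0.0752 and 0.974, limma). The pair of measured enzymes that recycle the pterin cofactor of the step before Tat, named after their values were seen, had differences of opposite sign. Qdpr fell by 1.11 ± 0.15 in hepatocyte-like cells (adjusted p = 9.94e-05, limma). Pcbd1 differed by 0.83 ± 0.25 between hepatocyte-like and stem cells (adjusted p = 0.0232) and was not called. Without replicate 3 the difference of Pcbd1 was 1.09, and it was the gene added to the higher calls.

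Around Agxt, which disposes of glyoxylate, the glyoxylate-forming oxidase Hao1 was at 3.79, 3.72 and 10.39 in stem cells, hepatocyte-like cells and adult hepatocytes, and the mitochondrial relative Agxt2 at 3.93, 4.03 and 8.92. Several enzymes of glycine and sulfur amino acids were well above the floor in stem cells. The glycine cleavage enzyme Gldc read 9.69, 9.13, 9.78 and 9.03 in stem cells and 6.16, 6.01 and 7.14 in hepatocyte-like cells, a fall of 2.97 ± 0.27 (adjusted p = 4.37e-06), and was at 10.21 in adult hepatocytes. Its partner Amt fell by 3.04 ± 0.35, and without hepatocyte-like replicate 3 by 3.59, that array reading 7.69 against 6.14 and 5.93. The sarcosine and pipecolate oxidase Pipox fell by 4.04 ± 0.23, and the transsulfuration enzymes Cth and Cbs fell by 3.41 ± 0.28 and 2.55 ± 0.22. Adult hepatocytes had Pipox at 11.33, Cth at 10.74 and Cbs at 10.98, each called higher than stem cells. Mat1a, the adult liver methionine adenosyltransferase, was at 4.97, 4.79 and 6.11 in hepatocyte-like cells, highest on replicate 3 as Tat was, and at 12.70 in adult hepatocytes.

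Of 16 listed regulators of these genes 14 were measured, and in hepatocyte-like against stem cells 4 were called higher and 0 lower, where 8.61% and 7.35% of all genes were. The glucocorticoid receptor Nr3c1 rose by 1.35 ± 0.24, to 8.48, 8.54 and 7.62 against 9.32 to 9.38 in adult hepatocytes. Foxa1 rose by 1.67 ± 0.47, although its arrays read 6.38, 7.97 and 5.15, and Prox1 by 1.52 ± 0.32. Cebpb rose by 1.15 ± 0.27, but was at 0.80 and not called without replicate 3, its highest array. Against adult hepatocytes 11 of 14 were lower in hepatocyte-like cells (9.12% of all genes), led by Cebpa (-5.0 ± 0.24), the fatty acid receptor Ppara (-4.78 ± 0.22), the glucagon receptor Gcgr (-4.14 ± 0.17) and Onecut1 (-4.07 ± 0.24). Next came Prox1 (-4.04 ± 0.34) and Hnf4a (-3.79 ± 0.24). On replicate 3, where Tat was highest, Nr3c1, Foxa1 and Hnf4a were lower than on the other hepatocyte-like arrays, while Cebpb and Creb1 were higher. The part of these regulators in the level of Tat was not tested.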

How the data were processed

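Total RNA was biotin-labelled and hybridised by an Affymetrix protocol, per the labels. The authors deposited log2 values for 41345 transcript clusters on 10 arrays. Tools listed without roles in the submitters' processing notes are Transcriptome Analysis Console, R 3.3.1, oligo 1.38.0 and RMA, and the genome build is not given in the sources used here. The platform annotation gives 1 symbol for 23521 clusters, and per gene the one with the highest mean was kept (22180 genes).

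Groups came from the sample titles. One fit of group means over all 10 arrays was made with limma 3.58.1 (lmFit, eBayes, 2-sided) in R 4.3.3, with 7 residual degrees of freedom and a prior of 5.34, adjusted over all genes by Benjamini-Hochberg. No other term was used. The script was tested on simulated data. Members, gene lists and motifs were chosen with earlier results of these data known. Named neighbours were listed by pathway, with up to 6 called genes each way by size, and for each member the 2 nearest profiles. Sequences are from RefSeq (GRCm38.p6), which held all 8 measured members. Same-numbered replicates did not deviate together (r from -0.17 to 0.07 in 9 pairs), so no pairing by number was used. This cannot exclude that same-numbered samples shared a run or source. The alternatives were other scalings, filters, variance models, thresholds, a replicate block and each array left out. Figures used Python 3.11.15 and matplotlib 3.10.9.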

Additional observations from a re-analysis of the deposited data

How the results depend on the processing

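Under the 21 alternatives all 8 enzymes were called in both comparisons with adult hepatocytes, and Hal was called lower in hepatocyte-like cells than in stem cells, at -1.19 to -1.0 (adjusted p = 1.43e-04 to 0.00242, limma). It was nearest to the minimum difference without embryonic stem cell replicate 2. With no minimum difference 2 enzymes passed in that comparison, Hal and Fah, and 6390 genes did, with 9205 for adult hepatocytes against stem cells and 8003 for the remaining comparison, because that setting drops a condition. Uroc1 in hepatocyte-like against stem cells was at -0.05 with arrays quantile normalized again or centred on their median. With 1 array left out it ran from -0.06 to 0.15, Tat from -0.20 to 1.22, Hgd from -0.04 to 0.56 and Agxt from -0.02 to 0.16, and the negative values of Tat, Hgd and Agxt came without hepatocyte-like replicate 3. The replicate block, which rests on numbers that showed no pairing of the samples, gave 3518 called genes in hepatocyte-like against stem cells and left 1 enzyme called, Hal. Levels below the floor, as for Hgd, Tdo2, Uroc1 and Agxt in stem cells, and the number of arrays limit the precision.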

Other observations

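Among the enzymes of branched chain amino acids, the cytosolic transaminase Bcat1 was highest in embryonic stem cells at 10.43 to 10.51, lower in hepatocyte-like cells at 8.28, 7.13 and 6.93, and lowest in adult hepatocytes at 5.30 to 5.68. It fell by 3.01 ± 0.27 in hepatocyte-like cells (adjusted p = 3.61e-06, limma) and by 5.01 ± 0.27 in adult hepatocytes against stem cells. The mitochondrial form Bcat2 was lower in adult hepatocytes than in stem cells by 1.95 ± 0.20, and the kinase Bckdk, which switches off the dehydrogenase of the next step, by 1.54 ± 0.20. These were the 3 genes of 76 called lower in adult hepatocytes than in stem cells, where 15.6% of all genes were. Against adult hepatocytes, Bcat1 and Bckdk were the 2 of 76 genes called higher in hepatocyte-like cells, where 13.9% of all genes were. Their differences were 2.0 ± 0.29 and 1.14 ± 0.22.

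Of the 76 genes 1 was called higher in hepatocyte-like than in stem cells, where 8.61% of all genes were. It was the sulfite oxidase Suox, which clears sulfite from sulfur amino acids. It read 7.35, 7.86 and 8.80 against 5.96 to 6.87, a rise of 1.5 ± 0.30 (adjusted p = 0.00205), and 1.10 without replicate 3. Its adult level was 10.69.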
